A study of Danio rerio with 24 samples.

Results

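The let-7 family comprised the 10 mature microRNAs dre-let-7a, dre-let-7b, dre-let-7c, dre-let-7d, dre-let-7e, dre-let-7f, dre-let-7g, dre-let-7h, dre-let-7i and dre-let-7j of zebrafish (Danio rerio, dre), written hereafter without the prefix, out of 239 zebrafish microRNA names on the arrays of this study. Every probe that carried one of the 10 names was used, which gave 20 of 490 zebrafish probes on a custom Agilent array and 11 of 255 on an Exiqon array. Whole embryos of the wild-type TL strain had been exposed at 30 hours post-fertilization (hpf) for 1 h to TCDD (2,3,7,8-tetrachlorodibenzo-p-dioxin, a ligand of the aryl hydrocarbon receptor) or to DMSO, the solvent control, and were sampled at 60 or at 36 hpf. The 4 groups were TCDD at 60 hpf, DMSO at 60 hpf, TCDD at 36 hpf and DMSO at 36 hpf, each with 3 biological replicates per platform. No source used here states the dose of TCDD, how many embryos made a sample or whether the platforms shared RNA.

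MicroRNAs are short RNAs that guide repressor complexes to messenger RNAs, mainly through a seed near their 5′ end. Let-7 was first described in Caenorhabditis elegans as a regulator of the timing of larval development, and its family in vertebrates shares the seed. In vertebrate cells the RNA-binding protein Lin28 holds back the maturation of let-7 precursors, and mature let-7 is known to accumulate as tissues differentiate. Known vertebrate targets include Lin28 itself, Ras genes and Hmga2.

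The Agilent probes show how close the members are. The longer of the 2 probes of each name is given 5′ to 3′ as DNA, the complement of the microRNA, and capitals mark bases that differ from the let-7a probe at the same position counted from the 5′ end of the probe.
let-7a: aactatacaacctactacct
let-7b: aacCaCacaacctactacc
let-7c: aacCatacaacctactacc
let-7d: aacCatacaaccAactacc
let-7e: aactatTcaaTctactacctca
let-7f: aactatacaaTctactacctc
let-7g: aactatacaaActactacctca
let-7h: aacAaCacaacTtactacc
let-7i: aacAGCacaaActactacctc
let-7j: aactGtacaaAcAactacc
The complement of the seed (bases 2 to 8 of the microRNA) lies at the 3′ end of these probes, and it was whole, with 7 bases, in the probes of let-7e, let-7f, let-7g and let-7i. It was shortened to 6 bases in that of let-7a and to 5 in those of let-7b, let-7c, let-7d, let-7h and let-7j. The let-7c probe differed from that of let-7a by T4C, the let-7f probe by C11T and the let-7g probe by C11A. The let-7e probe carried C11T with A7T, and the let-7d probe T4C with T13A. Let-7b had T4C and T6C. Let-7h, let-7i and let-7j were farther away, with 3, 4 and 3 differences from let-7a. How much of a probe's signal came from a close relative was not tested. Sequences of the Exiqon probes were not used here.

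On danRer5, the build of the Agilent array's annotation, let-7a matched chr4:18467986-18468005, chr5:28066920-28066939, chr6:57919600-57919619, chr11:27394666-27394685, chr15:21608615-21608634 and 1 scaffold, so its signal cannot be split by locus. Let-7f lay at chr11:27394460-27394479, 206 bases from a let-7a copy, and let-7b at chr4:18466974-18466991, 1012 bases from another. Let-7g (chr23:27989338-27989359, with a further copy at chr23:17801722-17801743) and let-7h (chr23:27989651-27989668) started 313 bases apart. A let-7e copy started 207 bases from the let-7a copy on the scaffold. Let-7c lay at chr15:30329795-30329813 and chr21:34460735-34460753, let-7d at chr16:23399815-23399833 and chr19:9115338-9115356, let-7i at chr25:1354230-1354249 and let-7j at chr6:45094181-45094198. Exon and intron annotation of this build was not used here.

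On the Agilent arrays let-7a, let-7b, let-7c, let-7d, let-7f and let-7g were higher at 60 than at 36 hpf, by 1.99- to 7.59-fold in TCDD embryos and by 2.23- to 7.84-fold in DMSO embryos. Of these, let-7b, let-7c and let-7d entered the test through the 60 hpf groups, so their calls add no support. All let-7d arrays at 36 hpf stood at the floor set for low signals. On the Exiqon arrays let-7a, let-7c, let-7d, let-7e and let-7g were higher by 2.57- to 4.10-fold in TCDD embryos and by 2.44- to 3.90-fold in DMSO embryos. Let-7h and let-7j passed with smaller differences, and let-7b, let-7f and let-7i did not pass there. Of all names, 50% of the 134 tested on the Agilent arrays passed as higher at 60 hpf in TCDD embryos and 45.5% in DMSO embryos, and on the Exiqon arrays 52% and 48.9% of the 223 did. No let-7 member tested differed between TCDD and DMSO embryos beyond the test's threshold at either stage on either platform. Few names did: at 60 hpf 4.48% on the Agilent and 6.73% on the Exiqon arrays, and at 36 hpf 0.746% and 0.448%. On the Agilent arrays let-7e, let-7h, let-7i and let-7j were not tested. Let-7d could not differ there at 36 hpf, where it stood at the floor.

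Agilent levels are given as the processed signal of the brightest detected probe in percent of the array's 75th percentile, which was taken over the spots of the 186 probes detected on all 12 arrays. Signals under a floor of 2.73% were set to it. A level can be compared between groups but not between members, since each rests on its own probe. The test was limma on log2 values over all 134 names tested, with Benjamini-Hochberg adjustment and a threshold of 0.05. Its p-values set a difference against the spread of samples within groups, for which the 4 groups shared 1 estimate per name. For let-7c and let-7d this estimate includes 36 hpf arrays at or near the floor, which makes it smaller. Of the 10 members, 6 passed the filter, which required detection on all 3 arrays of at least 1 group. Let-7a, let-7f and let-7g were well above background on all 12 arrays, whereas let-7b, let-7c and let-7d passed through the 60 hpf groups. DMSO replicate 2 at 60 hpf stood apart, with 191 probes detected, against 224 to 277 on the other 11 Agilent arrays. Without it the calls of the 6 members between stages and between treatments were kept. The log2 differences between 60 and 36 hpf in DMSO embryos were then 2.99 for let-7a, 3.01 for let-7f, 2.70 for let-7c and 2.24 for let-7g. That of let-7b was 0.84 (adjusted p = 0.0119, limma).

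Let-7a, the founding type of the family, had 64.4, 49.7 and 61.5% of the 75th percentile in the TCDD arrays at 60 hpf and 55.0, 53.5 and 58.6% in the DMSO arrays at 60 hpf, against 7.77, 7.69 and 7.53% in TCDD and 6.08, 7.12 and 8.51% in DMSO arrays at 36 hpf. Every array at 60 hpf lay above every array at 36 hpf, and the TCDD and DMSO arrays overlapped within each stage. The log2 difference between 60 and 36 hpf was 2.92 ± 0.12 (SE) in TCDD embryos (adjusted p = 4.49e-10, limma) and 2.96 ± 0.12 in DMSO embryos (adjusted p = 3.97e-10), or 7.59-fold and 7.76-fold.

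Let-7f, whose gene lies beside a let-7a copy, stood at 41.7, 32.2 and 38.5% of the 75th percentile in the TCDD arrays at 60 hpf and 35.5, 34.0 and 37.6% in the DMSO arrays at 60 hpf, against 4.88, 5.08 and 5.31% in TCDD and 3.99, 5.14 and 4.58% in DMSO arrays at 36 hpf. Again the stages did not overlap, and the log2 difference was 2.87 ± 0.10 (SE) in TCDD embryos (adjusted p = 2.13e-10, limma) and 2.97 ± 0.10 in DMSO embryos (adjusted p = 1.90e-10). Let-7a and let-7f held places 1 and 2 among the 134 names in TCDD embryos, ordered by log2 difference, and places 2 and 1 in DMSO embryos, with the brightest probe of each name. With the mean of all detected probes let-7a held place 1 in both treatments, whereas let-7f was at place 7 in both, with log2 differences of 2.20 in TCDD and 2.06 in DMSO embryos.

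Let-7g gave 22.0, 18.1 and 23.0% of the 75th percentile in the TCDD arrays at 60 hpf and 20.0, 18.1 and 22.9% in the DMSO arrays at 60 hpf, against 4.87, 4.63 and 5.37% in TCDD and 3.82, 4.89 and 4.97% in DMSO arrays at 36 hpf. Its stages did not overlap either, and its log2 difference was 2.08 ± 0.13 (SE) in TCDD embryos (adjusted p = 1.82e-08, limma) and 2.16 ± 0.13 in DMSO embryos (adjusted p = 1.37e-08).

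Let-7c measured 20.0, 12.1 and 20.2% of the 75th percentile in the TCDD arrays at 60 hpf and 17.2, 16.0 and 20.4% in the DMSO arrays at 60 hpf, against 2.80, 2.94 and 2.80% in TCDD and 2.82, 2.82 and 3.03% in DMSO arrays at 36 hpf. At 36 hpf these levels lay just above the floor, and the probe was well above background on 2 of 3 TCDD arrays and 1 of 3 DMSO arrays. The log2 difference was 2.58 ± 0.17 (SE) in TCDD embryos (adjusted p = 3.06e-08, limma) and 2.62 ± 0.17 in DMSO embryos (adjusted p = 2.93e-08). TCDD replicate 2 was the lowest of the arrays at 60 hpf for let-7a, let-7c and let-7f. For let-7g it was also lowest, almost level with DMSO replicate 2 at 18.1%.

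Let-7d reached 12.3, 10.3 and 11.6% in the TCDD arrays at 60 hpf and 10.1, 9.16 and 11.6% in the DMSO arrays at 60 hpf, and all 6 arrays at 36 hpf stood at the floor of 2.73%. It was not well above background on any array at 36 hpf, so only a bound can be given. Let-7d was at least 3.98-fold higher at 60 hpf in TCDD embryos and at least 3.50-fold higher in DMSO embryos. Each bound sets the mean of the 60 hpf group against the lowest signal well above background on the 36 hpf arrays.

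Let-7b, the member with the largest standard error of the 6, had 5.31, 8.21 and 7.74% of the 75th percentile in the TCDD arrays at 60 hpf and 3.89, 10.1 and 7.02% in the DMSO arrays at 60 hpf, against 2.74, 4.12 and 3.83% in TCDD and 3.01, 3.00 and 2.75% in DMSO arrays at 36 hpf. The stages did not overlap within a treatment, but DMSO replicate 1 at 60 hpf lay below TCDD replicate 2 at 36 hpf. The log2 difference was 0.99 ± 0.29 (SE) in TCDD embryos (adjusted p = 0.00846, limma) and 1.16 ± 0.29 in DMSO embryos (adjusted p = 0.00340). In TCDD embryos the call was lost with normexp background correction, at 0.58 (adjusted p = 0.0867), and with quantile normalization, at 0.26 (adjusted p = 0.493). The shorter probe of let-7b gave log2 differences of 0.50 in TCDD and 0.49 in DMSO embryos, and it was not well above background on DMSO replicate 2 at 60 hpf.

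Let-7a, let-7f and let-7g, detected on all 12 arrays, thus passed as higher at 60 hpf in both treatments. Let-7b, let-7c and let-7d entered the test through the 60 hpf groups, where they were high, so their calls add no support. Of all 134 names, 50% passed as higher in TCDD embryos and 45.5% in DMSO embryos, with a median log2 difference of 0.20 and 0.10 over all names. All 3 arrays at 60 hpf lay above all 3 at 36 hpf for let-7a, let-7f and let-7g in both treatments, as they did for 51.5% of names in TCDD and 45.5% in DMSO embryos. In the order by log2 difference, let-7c was 4 in both treatments, let-7g was 9 in TCDD and 8 in DMSO embryos, and let-7b was 35 in TCDD and 28 in DMSO embryos. In whole embryos, more cells of a type and more microRNA per cell cannot be told apart.

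**Figure D1:**
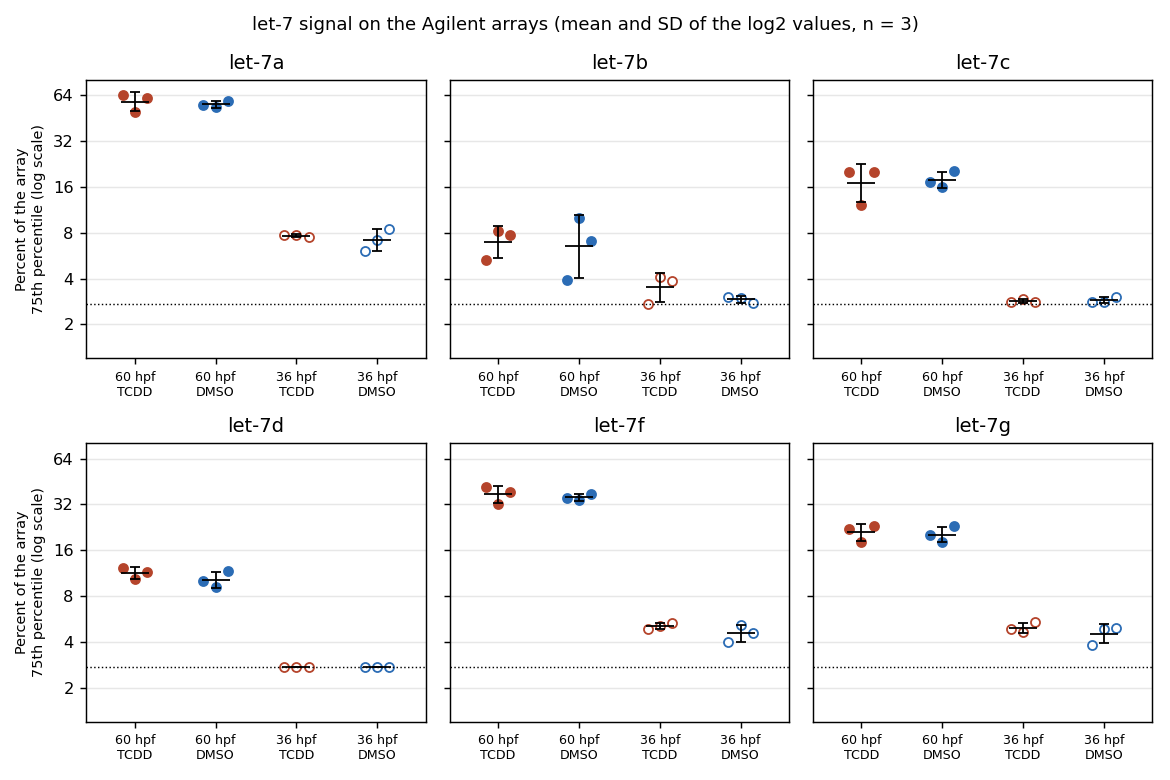
Signal of the 6 let-7 members tested on the Agilent arrays, in percent of the array's 75th percentile on a log axis. Points are arrays, lines and bars the mean and SD of the log2 values (n = 3), and the dotted line is the floor of 2.73%. Within each treatment the points at 60 hpf lie above those at 36 hpf for all 6 members. The same held for 51.5% of all names in TCDD and 45.5% in DMSO embryos. Let-7b, let-7c and let-7d entered the test through the 60 hpf groups. TCDD and DMSO points of a stage overlap, and let-7d at 36 hpf sits on the floor.

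The shorter Agilent probe gave the same direction for each of the 6 members, with smaller values for some. In TCDD embryos its log2 difference was 2.92 for let-7a, 2.02 for let-7g and 2.08 for let-7c. It was 1.52 for let-7f and 1.13 for let-7d, where the probes disagreed most in size. The shorter probes of let-7c, let-7d and let-7f were not well above background on any array at 36 hpf, so the floor limits these values.

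The other 4 members had little or no Agilent signal. Let-7e was well above background on 3 of 12 arrays, 2 of TCDD and 1 of DMSO embryos, all at 60 hpf, so it did not enter the test. Let-7h, let-7i and let-7j were not well above background on any of the 12 arrays with either probe.

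Exiqon levels are ratios of the sample, labelled with Hy3, to a reference pool of RNA samples, labelled with Hy5. An offset was added to the intensities before the ratios were taken, and its part in the size of the ratios was not tested. Where both channels were above background, a ratio of 1 means as much signal as in the pool after loess normalization. For let-7f, let-7h, let-7i and let-7j, whose reference signal was not above background, a ratio near 1 does not have this meaning. All 10 members were among the 223 names tested. Arrays of opposite stages correlated negatively over all probes (r from −0.61 to −0.51), whereas arrays of 1 group correlated at 0.907 to 0.990. The labels give the dyes, and the channel with the brighter landmark spots was taken as Hy3. Those spots had 12625.5 to 16845.3 in that channel and 108.4 to 134.7 in the other, Hy5. Since they set the channels, their brightness is no separate check of the dyes.

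The let-7a ratio was 1.56, 1.54 and 1.51 in the TCDD arrays at 60 hpf and 1.49, 1.58 and 1.52 in the DMSO arrays at 60 hpf, against 0.371, 0.388 and 0.365 in TCDD and 0.410, 0.376 and 0.391 in DMSO arrays at 36 hpf. All arrays at 60 hpf were above the pool and all at 36 hpf below it. The log2 difference was 2.04 ± 0.04 (SE) in TCDD embryos (adjusted p = 1.26e-14, limma) and 1.96 ± 0.04 in DMSO embryos (adjusted p = 2.01e-14), which placed let-7a at 3 of 223 names in both treatments.

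For let-7e, rarely detected on the Agilent arrays, the ratio was 1.46, 1.48 and 1.45 in the TCDD arrays at 60 hpf and 1.46, 1.40 and 1.36 in the DMSO arrays at 60 hpf, against 0.454, 0.442 and 0.435 in TCDD and 0.477, 0.470 and 0.465 in DMSO arrays at 36 hpf. Its 2 stages were far apart, with a log2 difference of 1.72 ± 0.03 (SE) in TCDD embryos (adjusted p = 1.47e-14, limma) and 1.58 ± 0.03 in DMSO embryos (adjusted p = 3.66e-14). The Hy3 signal over local background of its probe lay between 712 and 1280 at 60 hpf, against 191 to 284 at 36 hpf.

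Let-7g had ratios of 1.42, 1.45 and 1.44 in the TCDD arrays at 60 hpf and 1.47, 1.44 and 1.48 in the DMSO arrays at 60 hpf, against 0.475, 0.506 and 0.488 in TCDD and 0.483, 0.465 and 0.486 in DMSO arrays at 36 hpf. Let-7d had ratios of 1.56, 1.57 and 1.63 in the TCDD arrays at 60 hpf and 1.63, 1.57 and 1.63 in the DMSO arrays at 60 hpf, against 0.561, 0.601 and 0.602 in TCDD and 0.569, 0.549 and 0.573 in DMSO arrays at 36 hpf. The ratios of let-7c were 1.47, 1.44 and 1.41 in the TCDD arrays at 60 hpf and 1.45, 1.41 and 1.41 in the DMSO arrays at 60 hpf, against 0.562, 0.570 and 0.548 in TCDD and 0.605, 0.570 and 0.578 in DMSO arrays at 36 hpf. In all 3 the arrays at 60 hpf exceeded the pool and those at 36 hpf fell short of it. The log2 difference of let-7g was 1.55 ± 0.03 (SE) in TCDD embryos (adjusted p = 3.65e-14, limma) and 1.62 ± 0.03 in DMSO embryos (adjusted p = 2.61e-14). That of let-7d was 1.44 ± 0.04 (SE) in TCDD embryos (adjusted p = 1.67e-13, limma) and 1.51 ± 0.04 in DMSO embryos (adjusted p = 1.38e-13). Let-7c followed with 1.36 ± 0.03 (SE) in TCDD embryos (adjusted p = 1.15e-13, limma) and 1.29 ± 0.03 in DMSO embryos (adjusted p = 2.09e-13). In the order of the 223 names by log2 difference, let-7e was 5 in TCDD and 8 in DMSO embryos, let-7g was 8 and 7, let-7d was 14 and 9, and let-7c was 20 in both.

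Let-7b did not separate the stages, with ratios of 0.989, 1.01 and 1.05 in the TCDD arrays at 60 hpf and 1.04, 0.983 and 1.01 in the DMSO arrays at 60 hpf, against 1.02, 1.05 and 0.959 in TCDD and 1.04, 1.06 and 1.07 in DMSO arrays at 36 hpf. Its log2 difference was 0.00 ± 0.04 (SE) in TCDD embryos (adjusted p = 0.921, limma) and −0.06 ± 0.04 in DMSO embryos (adjusted p = 0.184), with 95% confidence intervals of −0.08 to 0.09 and −0.15 to 0.02. Both channels of its probe were well lit, with Hy3 signals over background of 279 to 440 at 60 hpf and 222 to 374 at 36 hpf. Its value moved with the scaling: the Hy3 channel alone gave −0.19 in TCDD (adjusted p = 0.0169) and −0.28 in DMSO embryos (adjusted p = 0.00210), and median centring gave 0.39 in TCDD embryos (adjusted p = 0.0111).

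The ratios of let-7h were 1.24, 1.25 and 1.34 in the TCDD arrays at 60 hpf and 1.12, 1.15 and 1.21 in the DMSO arrays at 60 hpf, against 0.974, 1.01 and 0.940 in TCDD and 0.936, 1.00 and 0.979 in DMSO arrays at 36 hpf. Let-7j gave ratios of 1.14, 1.12 and 1.16 in the TCDD arrays at 60 hpf and 1.15, 1.15 and 1.06 in the DMSO arrays at 60 hpf, against 0.941, 0.893 and 0.980 in TCDD and 0.869, 0.963 and 0.931 in DMSO arrays at 36 hpf. Both were slightly higher at 60 hpf with no overlap between stages. The log2 difference was 0.39 ± 0.04 (SE) in TCDD embryos (adjusted p = 2.47e-06, limma) and 0.25 ± 0.04 in DMSO embryos (adjusted p = 0.000174) for let-7h. For let-7j it was 0.28 ± 0.05 (SE) in TCDD embryos (adjusted p = 0.000146, limma) and 0.28 ± 0.05 in DMSO embryos (adjusted p = 0.000139). In DMSO embryos these calls were lost with median centring, at 0.13 (adjusted p = 0.172) for let-7h and 0.10 (adjusted p = 0.299) for let-7j. That of let-7h was also lost with the Hy3 channel alone, at 0.09 (adjusted p = 0.121).

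Let-7f, the member with the largest Agilent difference in DMSO embryos, had Exiqon ratios of 0.921, 1.03 and 1.09 in the TCDD arrays at 60 hpf and 0.976, 0.891 and 0.943 in the DMSO arrays at 60 hpf, against 0.948, 0.767 and 0.971 in TCDD and 0.764, 0.867 and 0.863 in DMSO arrays at 36 hpf. The stages overlapped in TCDD embryos and were apart in DMSO embryos. The log2 difference did not pass, at 0.18 ± 0.09 (SE) in TCDD embryos (adjusted p = 0.0780, limma) and 0.17 ± 0.09 in DMSO embryos (adjusted p = 0.0946). Without TCDD replicate 1 at 60 hpf or TCDD replicate 3 at 36 hpf it was 0.25 in TCDD embryos (adjusted p = 0.0258 and 0.0288). The ratios of let-7i were 1.19, 1.24 and 1.15 in the TCDD arrays at 60 hpf and 1.21, 1.18 and 1.24 in the DMSO arrays at 60 hpf, against 1.18, 1.16 and 1.12 in TCDD and 1.23, 1.14 and 1.12 in DMSO arrays at 36 hpf. They overlapped between the stages, and the log2 difference was 0.05 ± 0.04 (SE) in TCDD embryos (adjusted p = 0.317, limma) and 0.06 ± 0.04 in DMSO embryos (adjusted p = 0.269). Averaging both let-7i probes gave 0.14 in TCDD (adjusted p = 0.00461) and 0.10 in DMSO embryos (adjusted p = 0.0306).

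For let-7f, let-7h, let-7i and let-7j the reference channel was not above background on any Exiqon array, and their net Hy5 signals were all below 0. The net Hy3 signal of let-7f was 26.2 to 34.8 at 60 hpf and 19.3 to 34.2 at 36 hpf. Probes with no microRNA name had per-array medians of 39.0 to 47.3 at 60 hpf and 35.7 to 44.0 at 36 hpf in that channel, so the let-7f probe did not exceed them. Let-7h (57.6 to 68.7 at 60 hpf and 40.2 to 57.2 at 36 hpf) and let-7j (53.2 to 60.6 at 60 hpf and 38.3 to 50.7 at 36 hpf) were above these medians at 60 hpf, while at 36 hpf the ranges overlapped. The other 56 probes without reference signal had a median log2 difference between the stages of 0.05 in TCDD and 0.06 in DMSO embryos. When a name had to be above background in both channels, a filter added after the data were seen, 6 members remained and 5 of them were higher at 60 hpf in each treatment. Of all 162 names that passed this filter, 94 were higher in TCDD and 89 in DMSO embryos.

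**Figure D2:**
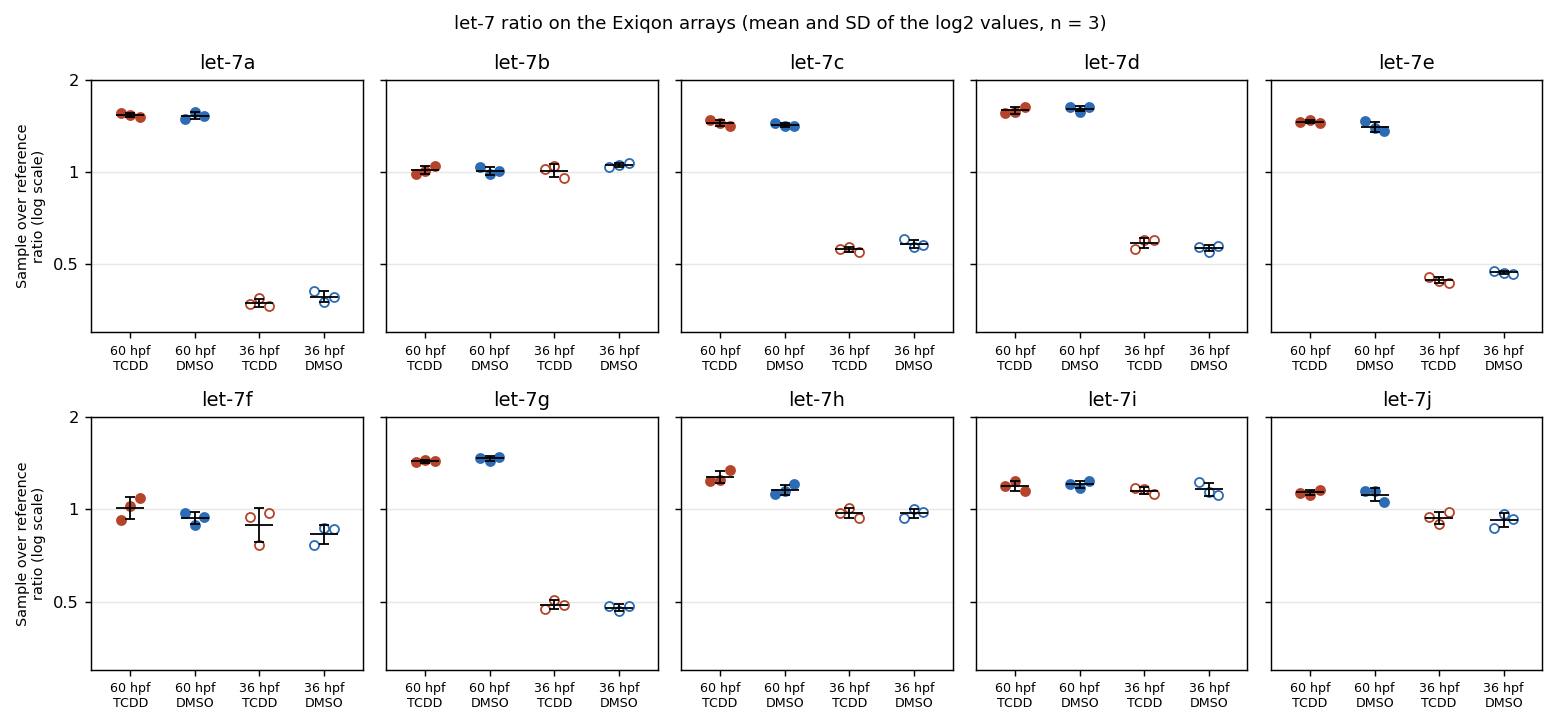
Sample over reference ratio of the 10 let-7 members on the Exiqon arrays, on a log axis. Points are arrays, lines and bars the mean and SD of the log2 values (n = 3). Let-7a, let-7c, let-7d, let-7e and let-7g lie above 1 at 60 hpf and below 1 at 36 hpf, while the other 5 stay near 1 at both stages. Of these 5, only let-7b had reference signal above background.

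On the Exiqon arrays 7 of 10 members were higher at 60 hpf in each treatment and none was lower, where 52% of all 223 names passed as higher in TCDD and 48.9% in DMSO embryos. The median log2 difference of the members was 0.88 in TCDD and 0.78 in DMSO embryos, and that of all names 0.14 and 0.11. The arrays of the stages did not overlap for 7 members in TCDD and 8 in DMSO embryos, with all of them higher at 60 hpf, and the same held for 53.4% of names in TCDD and 55.2% in DMSO embryos. Let-7a, let-7c, let-7d, let-7e and let-7g lay far above the median of all names, and let-7h and let-7j close to it.

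**Figure D3:**
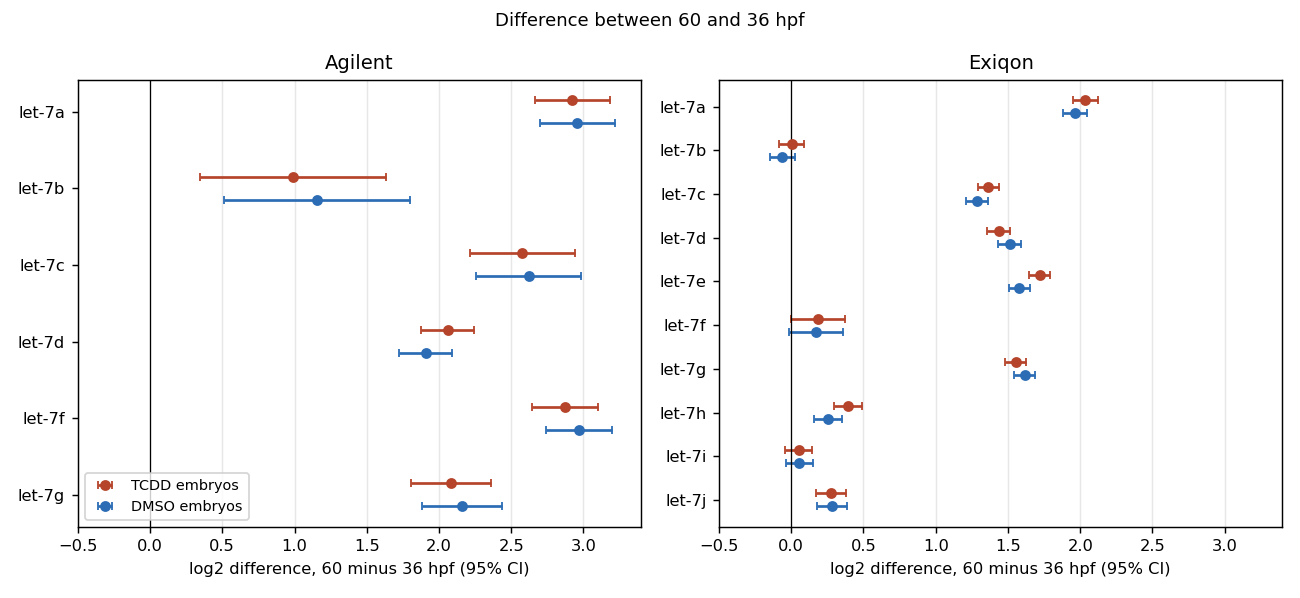
Log2 difference between 60 and 36 hpf of each let-7 member with its 95% confidence interval, in TCDD and DMSO embryos, on the Agilent arrays (left) and the Exiqon arrays (right). The Agilent values of let-7d are taken against the floor, where all its arrays at 36 hpf stood. The floor also narrows the Agilent intervals of let-7c and let-7d. The intervals of TCDD and DMSO embryos overlap for each Agilent member. Among the members tested on both platforms, only let-7b and let-7f did not pass on the Exiqon arrays. The let-7f probe had no reference signal above background there.

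**Figure D4:**
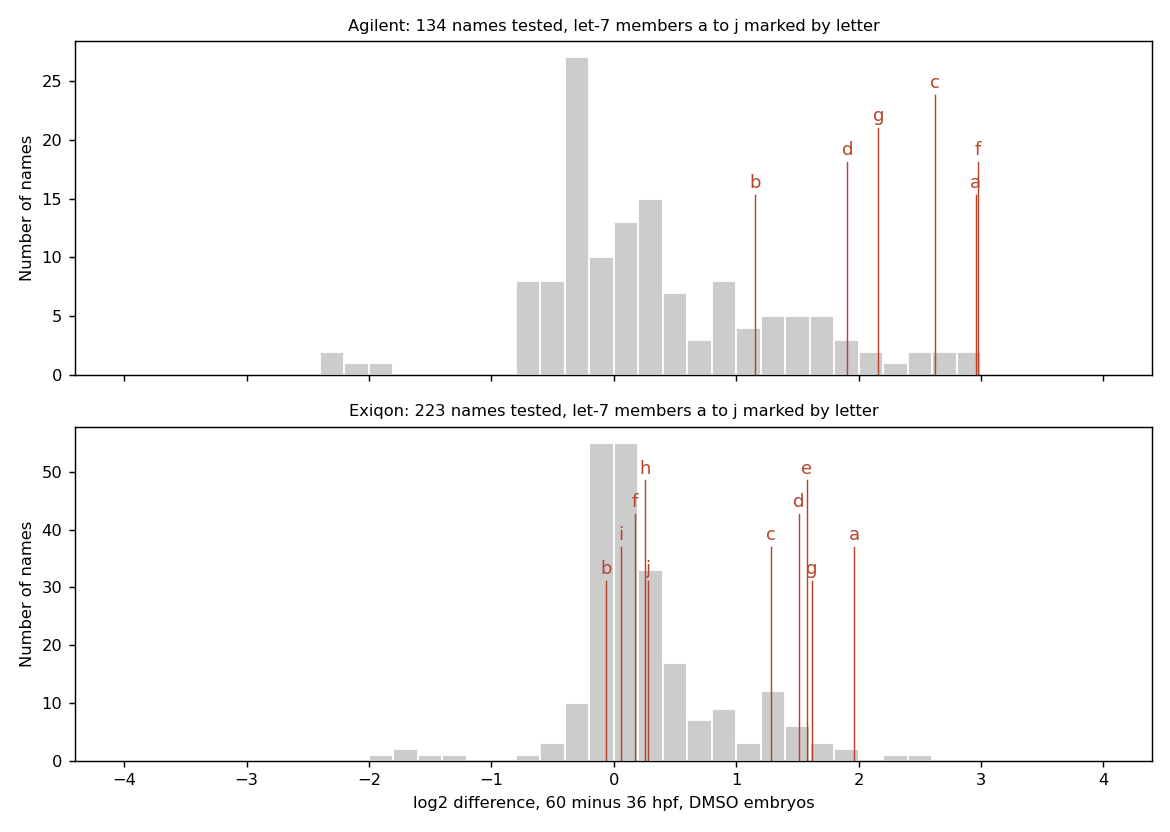
Number of microRNA names by log2 difference between 60 and 36 hpf in DMSO embryos, in bins, with each let-7 member marked by its letter. On the Agilent arrays the 6 members lie in the upper part of the 134 names. Of these, let-7b, let-7c and let-7d entered the test through the 60 hpf groups, so their positions add no support. On the Exiqon arrays let-7a, let-7c, let-7d, let-7e and let-7g lie there and the other 5 lie in the main body of the 223 names.

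The platforms gave unlike values for let-7b. The values of let-7f were unlike too, but its Exiqon probe had no reference signal above background. Its Hy3 signal did not exceed that of probes with no microRNA name, so the platforms cannot be compared for let-7f. Let-7e was tested on the Exiqon arrays only, with log2 differences between the stages of 1.72 in TCDD and 1.58 in DMSO embryos. On the Agilent arrays let-7e was well above background on 3 of 12 arrays, all at 60 hpf, so the platforms cannot be compared for it. Let-7a was within the first 3 places by log2 difference on both, and let-7c, let-7d and let-7g were higher at 60 hpf on both. For let-7c and let-7d the Agilent calls add no support, since both entered that test through the 60 hpf groups. Agilent values exceeded Exiqon values for let-7a, let-7c, let-7d and let-7g in both treatments in the main fit. With the deposited Exiqon values, let-7d had 1.85 in TCDD and 1.91 in DMSO embryos, against 1.44 and 1.51 in the main fit. Its Agilent values in the main fit were 2.06 and 1.91. For let-7a, let-7c and let-7g the Exiqon values stayed below the main Agilent values in all alternatives run. The part of the offset added to the Exiqon intensities was not tested. Values of the platforms were normalized separately, and the difference between platforms was not tested.

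No let-7 member tested passed the threshold between TCDD and DMSO embryos. On the Agilent arrays 0 of 6 members passed at 60 hpf, where 4.48% of the 134 names did (limma). At 36 hpf 0 of 5 passed, where 0.746% of names did. Let-7d is left out there, since all its arrays stood at the floor and its difference was fixed at 0. No unadjusted p under 0.05 was found for the 6 at 60 hpf or for the 5 at 36 hpf. At 60 hpf the log2 differences, TCDD minus DMSO, ran from −0.07 for let-7c to 0.15 for let-7d, and the confidence intervals of the 6 members from −0.54 to 0.74, which is 0.685- to 1.67-fold. At 36 hpf those of the 5 members measured there ran from −0.02 for let-7c to 0.27 for let-7b, with intervals from −0.38 to 0.91, or 0.767- to 1.88-fold. Let-7c lay just above the floor at 36 hpf in both groups. Let-7b was well above background there on 2 of 3 arrays in each group. The floor thus limits both values. Let-7b had the widest interval at both stages. For let-7d the SD of the log2 values was 0 at 36 hpf, against 0.13 in TCDD and 0.17 in DMSO arrays at 60 hpf. For let-7c it was 0.04 and 0.06 at 36 hpf, against 0.42 and 0.18. Since the stages share 1 estimate, the intervals of these members understate the spread at 60 hpf. The groups overlapped for all 6 members at 60 hpf, where 11.9% of names did not overlap. They also overlapped for the 5 members measured at 36 hpf, where 17.2% of names did not.

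The Exiqon arrays had narrower intervals, and the part of the offset added to their intensities in this was not tested. At 60 hpf 0 of 10 members passed, where 6.73% of the 223 names did, and at 36 hpf 0 of 10, where 0.448% did (limma). Log2 differences ran from −0.03 for let-7g to 0.14 for let-7h at 60 hpf, with intervals from −0.11 to 0.30 (0.927- to 1.23-fold). At 36 hpf they ran from −0.08 for let-7e to 0.10 for let-7f, with intervals from −0.16 to 0.29 (0.896- to 1.22-fold). For let-7f, let-7h, let-7i and let-7j the reference signal was not above background, so the lack of a call says little about them. The let-7f probe also did not exceed unnamed probes in the Hy3 channel. Among let-7a, let-7b, let-7c, let-7d, let-7e and let-7g alone, the intervals ran from −0.10 to 0.13 at 60 hpf. At 36 hpf theirs ran from −0.16 to 0.14. An unadjusted p under 0.05 was reached by 1 member at each stage, let-7h at 60 hpf and let-7e at 36 hpf.

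Let-7h came closest to a call. Its ratios were higher on all 3 TCDD arrays than on all 3 DMSO arrays at 60 hpf, by 0.14 ± 0.04 (SE) on the log2 scale (adjusted p = 0.0820, limma). Without TCDD replicate 2 at 60 hpf the difference was 0.15 (adjusted p = 0.0445). That replicate was the only TCDD array at 60 hpf whose image was analysed on the day of all DMSO images. Without it, treatment and day cannot be told apart, and within that day the difference was 0.11. The reference signal of let-7h was not above background and its Agilent probes were not detected. At 36 hpf let-7c and let-7e were lower on all 3 TCDD arrays than on all 3 DMSO arrays, by −0.06 (adjusted p = 0.675, limma) and −0.08 (adjusted p = 0.470). Groups that do not overlap were thus found for 1 of 10 members at 60 hpf and 2 of 10 at 36 hpf, below the 25.1% of all names at each stage.

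The mean of the TCDD differences at both stages was also tested. On the Agilent arrays 0 of the 5 members measured at both stages passed, where 3.73% of names did (limma). Let-7d is again left out, since it stood at the floor at 36 hpf. On the Exiqon arrays 0 of 10 passed, where 7.17% did. For let-7f, let-7h, let-7i and let-7j the low reference signal limits this test and the next. The TCDD difference at 60 hpf was also set against that at 36 hpf, which asks whether TCDD altered the rise of a member between the stages. Here 0 of the same 5 members passed on the Agilent arrays, where 1.49% of names did, and 0 of 10 on the Exiqon arrays, where 2.69% did. The largest such value on the Exiqon arrays was 0.14 ± 0.05 (SE) for let-7e (adjusted p = 0.180), and 2 of 10 members had an unadjusted p under 0.05. Ordered by level, each member with a large stage difference therefore had both 60 hpf groups above both 36 hpf groups, and the TCDD and DMSO groups of a stage did not differ past the threshold.

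**Figure D5:**
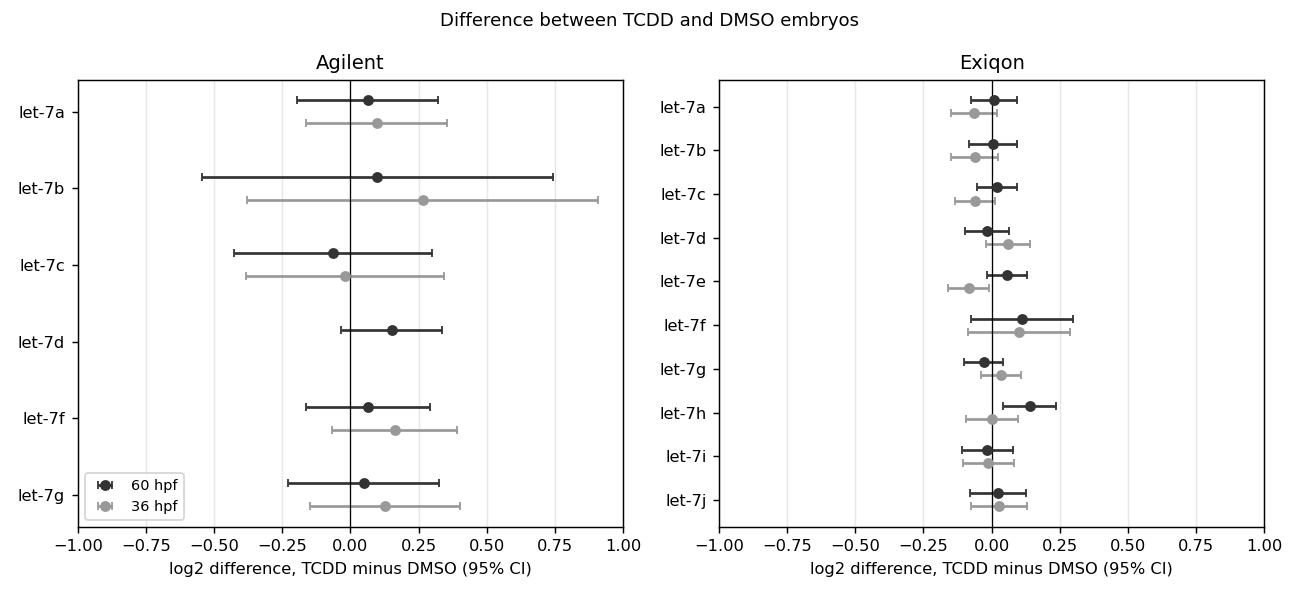
Log2 difference between TCDD and DMSO embryos of each let-7 member with its 95% confidence interval, at 60 and at 36 hpf, on the Agilent arrays (left) and the Exiqon arrays (right). Values lie between −0.08 and 0.27, and let-7d has no Agilent value at 36 hpf, where it was below background in both groups. The floor at 36 hpf also narrows the Agilent intervals of let-7c and let-7d. The intervals of let-7h at 60 hpf and let-7e at 36 hpf on the Exiqon arrays do not include 0, without adjustment for the number of names. Let-7f, let-7h, let-7i and let-7j had no reference signal above background on the Exiqon arrays.

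Copies of let-7 in vertebrate genomes often lie beside members of the miR-99, miR-100 and miR-125 families. On danRer5 miR-100 started 308 and 229 bases from let-7a copies on chromosomes 5 and 15, and miR-125b 8312 and 9818 bases from the same copies. MiR-99 started 249 and 2226 bases from let-7c copies on chromosomes 15 and 21, and miR-125c 5139 bases from the copy on chromosome 15. The neighbours and their let-7 copies were on the same strand. MiR-125a had no annotated position within 10000 bases of a let-7 copy. Of the 5 names miR-99, miR-100, miR-125a, miR-125b and miR-125c, all 5 were higher at 60 hpf in both treatments on both platforms, where 50% of Agilent and 52% of Exiqon names passed as higher in TCDD embryos, and 45.5% and 48.9% in DMSO embryos. Their median log2 difference on the Agilent arrays was 1.52 in TCDD and 1.47 in DMSO embryos, against 0.20 and 0.10 over all names. On the Exiqon arrays it was 1.45 and 1.46, against 0.14 and 0.11. On the Agilent arrays miR-125a stood at the floor on all arrays at 36 hpf and entered the test through the 60 hpf groups, so its call there adds no support. Its Exiqon value was the largest of the 5, with 1.96 in TCDD and 1.90 in DMSO embryos. The smallest was that of miR-100 on the Agilent arrays, 0.98 in TCDD and 0.93 in DMSO embryos, and that of miR-99 on the Exiqon arrays, 0.52 in both. Between TCDD and DMSO embryos none of the 5 passed on the Exiqon arrays, where 6.73% of names did at 60 hpf and 0.448% at 36 hpf. On the Agilent arrays none of the 5 passed at 60 hpf, where 4.48% of names did. At 36 hpf none of the others passed there, where 0.746% did. MiR-125a is left out at 36 hpf, since its difference was fixed at 0 by the floor.

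The other names whose pattern was most like let-7 were found by Pearson correlation over the 12 arrays with the mean centred profile of the members tested. On the Agilent arrays these were miR-9* (r = 0.997), miR-96 (r = 0.997), miR-129* (r = 0.995), miR-99 (r = 0.995) and miR-107 (r = 0.995). On the Exiqon arrays they were miR-181c, miR-124, miR-9* and miR-9 (each r = 0.999) and miR-183 (r = 0.998). MiR-9 and miR-124 are known from neural tissue, and miR-96 and miR-183 from sensory organs. The 12 points share the 2 stages, so these values describe the stage difference above all. Each member is itself part of the profile. Among the members, r with the profile ran from 0.848 for let-7b to 0.998 for let-7f on the Agilent arrays. On the Exiqon arrays it was 0.998 to 0.999 for the 5 members with large differences, 0.938 for let-7j, 0.931 for let-7h, 0.621 for let-7f, 0.519 for let-7i and −0.295 for let-7b.

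Markers of tissues of the embryo were measured beside let-7. Of 15 names for muscle, neurons, red cells, skin, liver and the early embryo, 13 were above background on all 12 Agilent arrays and 15 on all 12 Exiqon arrays. Between the stages 6 rose and 7 fell in each treatment on the Agilent arrays, and 6 rose and 6 fell on the Exiqon arrays. Of all 134 Agilent names, 67 rose and 42 fell in TCDD embryos, and 61 rose and 44 fell in DMSO embryos. Of all 223 Exiqon names, 116 rose and 37 fell in TCDD embryos, and 109 rose and 36 fell in DMSO embryos. Over the 15 names the Agilent log2 differences ran from −2.20 to 2.21 in TCDD embryos, with a median of 0.01. In DMSO embryos they ran from −2.29 to 2.08, with a median of −0.01. As examples from both ends, the neuronal miR-9 rose by 2.21 in TCDD and 2.08 in DMSO embryos and miR-124 by 1.84 and 1.61. MiR-430a of the early embryo fell by 2.15 and 2.06. The part of tissue composition in the let-7 difference was not tested. The Agilent arrays had 191 to 277 of 490 zebrafish probes above background and the Exiqon arrays 241 to 255 of 255.

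The stage differences that passed kept their direction within technical batches. Each Agilent slide held all 4 groups, and let-7a, let-7c, let-7f and let-7g had log2 differences of 2.18 to 3.10 in TCDD and 2.39 to 3.18 in DMSO embryos on slide 1, with 1 array of each group, and of 2.04 to 2.86 in TCDD and 2.05 to 2.88 in DMSO embryos on slide 2. Let-7b in DMSO embryos varied most, with 0.37 on slide 1 and 1.55 on slide 2. The Exiqon images of TCDD embryos had been analysed on 2 days, and let-7a gave 2.02 on day 1 and 2.07 on day 2. All images of DMSO embryos had been analysed on day 1. Between TCDD and DMSO arrays on slide 1 the log2 differences of the 6 members at 60 hpf ran from 0.14 to 0.45, and on slide 2 from −0.21 to 0.08. The image file names of the 3 Exiqon arrays of DMSO embryos at 36 hpf carried a scan label that no other Exiqon array had. In comparisons with that group the scan label and the group cannot be told apart.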

How the data were processed

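MicroRNAs were measured in whole embryos on 12 Agilent arrays and 12 Exiqon arrays, 3 per group. The deposited Agilent files hold the processed intensity of each spot, made by the authors with Feature Extraction 9.5 per the submitters' processing notes, with flags for spots well above background and for outliers. The deposited Exiqon files hold intensities and local backgrounds of both dyes, of which the mean values per spot were used. The image program has version 8.0.1, per the file headers. Their flags and the landmark spots are in the same deposited files. The authors also deposited a value table per platform: the Agilent one equals the processed intensity, and the Exiqon one, on a log2 scale, correlates at 0.898 to 0.972 with the ratios used here, with a normalization not given in the sources used here.

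Outlier spots (3.05 to 6.39% per Agilent array and 4.51 to 18.3% flagged per Exiqon array, zebrafish spots) were left out. Agilent signals were divided by the 75th percentile, floored and averaged over 10 spots per probe. Exiqon intensities were corrected with normexp (offset 50), normalized by loess and averaged over 4 spots. A probe counted as detected when at least a share of 0.5 of its spots was above background, by 2 SD on the Exiqon arrays. The fit used limma 3.58.1 in R 4.3.3 with 4 group means and two-sided tests adjusted over all names. The limma fit was tested on simulated data. All members were named. Other names were the 5 most correlated per platform, 5 names of the miR-99, miR-100 and miR-125 families and the tissue markers. The members and lists were chosen with earlier results of these data known. Alternatives covered background correction, scaling, filters, probe averaging, batches, the replicate number and leaving out each array.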

Additional observations from a re-analysis of the deposited data

How the results depend on the processing

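No stage difference that passed the threshold reversed under the alternatives run. No TCDD difference passed in the main fit, so a reversal could not be counted for TCDD. Small TCDD differences did change sign, as for Agilent let-7c at 60 hpf, which ran from −0.19 to 0.18. The counts of members past the threshold kept within 1.5 times of their value in all alternatives run, except that leaving out 1 array gave 0 to 1 members between TCDD and DMSO embryos at 60 hpf on the Exiqon arrays. The 1 was let-7h without TCDD replicate 2 at 60 hpf, where treatment and the day of image analysis cannot be told apart. Let-7a ranged from 2.41 to 3.04 in TCDD and 2.50 to 3.08 in DMSO embryos on the Agilent log2 scale, and from 1.87 to 2.35 and 1.61 to 2.20 on the Exiqon scale. Agilent let-7f ranged from 2.20 to 2.98 in TCDD and 2.06 to 3.06 in DMSO embryos, lowest with the mean of all detected probes. Of single members, 8 Exiqon values gained a call between the stages and 3 lost it, and 2 Agilent values lost it, as given for let-7b, let-7f, let-7h, let-7i and let-7j. For let-7f in DMSO embryos the fit on these groups alone gave adjusted p = 0.0196. The cause was not tested.

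Scaling moved all names. In DMSO embryos 58.1% of Agilent calls were higher at 60 hpf, against 40.5% with the percentile over all probes and 42.7% with quantile normalization, where the median log2 difference of all names was −0.18 and −0.12. In TCDD embryos the shares were 61.5%, 43.6% and 42.5%. Exiqon calls were higher in 75.8% in TCDD and 75.2% in DMSO embryos, and in 95.5% and 93.1% with median centring, where the median was 0.43 and 0.31.

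The check of the replicate number did not use the signals themselves. Those correlated at 0.868 to 0.911 between Agilent arrays of opposite stages. In the check, samples with the same number correlated at −0.53 to 0.60 on the Agilent and −0.28 to 0.29 on the Exiqon arrays. There 6 and 4 of 12 arrays correlated best with their own number. The labels name no shared source for a number, and on the Agilent arrays replicate 1 of each group was on slide 1 and replicates 2 and 3 on slide 2. With the replicate number as a block, 6 of 6 Agilent and 7 of 10 Exiqon members were higher at 60 hpf in each treatment. The Agilent calls of let-7b, let-7c and let-7d add no support here either. Of all names, 67 of 134 on the Agilent and 116 of 223 on the Exiqon arrays were then higher in TCDD embryos, and 62 and 108 in DMSO embryos. With this block 0 members passed between TCDD and DMSO embryos. A block for the Exiqon scan label was not run, since 1 label was found in a single group only. Ratios with the sign turned were not run because the labels give the dyes and the landmark spots set the channels.

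Array number limits precision, with 3 arrays per group, and a low signal limits let-7b, let-7c and let-7d at 36 hpf on the Agilent arrays and let-7f, let-7h, let-7i and let-7j on the Exiqon arrays. Without the filter on dim probes let-7e, let-7h, let-7i and let-7j stood at the Agilent floor.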
